A study of Sus scrofa with 80 samples.

Results

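The ZNF genes of the pig are those whose symbol is ZNF followed by a number, the naming given to most proteins built from repeated zinc fingers. They were taken from the platform annotation of the Affymetrix Porcine GeneChip as the genes named alone on a probeset with such a symbol, ZNF12 left out, and gave 47 genes of the 6765 genes that the annotation names in this way. These 47 genes were read by 69 probesets; 34 had 1 probeset and 13 had several, and for the latter the probeset with the highest mean was used. The rule reads symbols and uses no difference between groups.

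A classical zinc finger folds a short loop around a zinc ion held by 2 cysteines and 2 histidines, and rows of such fingers read DNA or RNA. Many ZNF proteins carry a KRAB box, which calls in a co-repressor complex that silences chromatin, others carry a SCAN box for pairing with each other, and others again have fingers only. KRAB zinc finger proteins are best known for silencing transposable elements, and several ZNF genes act in germ cells, in stem cells or in the control of the cell cycle. The symbol follows the fingers and not the function, and members such as ZNF207, a spindle protein, or ZNF106, an RNA-binding protein, have little in common beyond them.

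The data were 80 arrays from 16 pigs and 5 endocrine or fat tissues, with the hypothalamus, adenohypophysis, thyroid gland and backfat of each animal (16 arrays each) and its gonad, kept apart here as 9 testes and 7 ovaries. Large White, Duroc and Iberian were each represented by 2 males and 2 females and Youli, a cross of Landrace with a Sino-European hybrid line, by 3 males and 1 female. Mean ages at slaughter were 87 days in Large White, 83 in Duroc, 80 in Youli and 89 in Iberian, with mean live weights of 27.2, 23.1, 18.9 and 17.4 kg, so that breed, age and weight cannot be told apart. All were young pigs kept together on the same diets and fasted for 24 h. Each array held RNA of a piece of whole tissue, in which fewer cells of a type and less RNA per cell cannot be told apart.

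Values were the log2 intensities that the authors obtained with GCRMA, a normalization that subtracts background by probe composition. Levels of different probesets are not comparable, so each gene was compared with itself across arrays. By the mean log2 level of marker lists each group was highest for the list of its own tissue, although single markers were not (FOXL2 was at 1.84 in ovary, FSHR at 3.69 in ovary and 5.41 in testis, and LEP at 3.59 in backfat). Arrays that stood apart by their markers numbered 12 of 80, and fat markers were also present in thyroid gland. Among the 12 were 3 testes with spermatid markers, which do not go against the label testis. The ovary of the Iberian female IBF25 was at 2.55 for ovary markers, against 7.77 to 8.81 in the other 6 ovaries. Skeletal muscle markers were at 5.49 to 14.31 in 5 backfat arrays, highest in that of the Youli male YLM19, and markers of spermatocytes and spermatids were at 8.0 to 10.43 in 3 testes (LWM02, YLM19 and YLM20). Of the latter list TNP2, PRM1, PRM2, ODF1 and SPA17 were measured. Adenohypophysis markers reached 5.53 to 8.0 in the hypothalamus and thyroid of YLM19 and in the thyroid of YLM20. Fat markers, at 9.66 or more in backfat, were at 4.32 to 9.32 in the thyroid arrays (median 6.57), 15 of the 16 at log2 5 or more, so these arrays were not left out. The breed or sex field of 11 of the 16 thyroid arrays differed from the title; titles were used, and a Y-linked transcript was at 9.67 or more in all 9 thyroids titled male and at 3.03 or less in all 7 titled female.

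Most ZNF genes were detected in every tissue. With a group mean of log2 4 or more taken as detected, 38 of the 47 genes were detected in hypothalamus, 39 in adenohypophysis, 38 in thyroid gland, 39 in backfat, 41 in testis and 41 in ovary. In percent this was 80.9, 83.0, 80.9, 83.0, 87.2 and 87.2, beside 75.0, 74.5, 75.0, 74.8, 75.7 and 77.2 of the 6765 genes. A total of 38 ZNF genes (80.9%, against 66.3% of all genes) were detected in all 6 groups. On each of the 80 arrays 30 were at or over log2 4, a count that was not made for all genes. Counted within breeds, the number lay between 37 and 42 in every tissue.

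Of the other 9 members, 4 (ZNF34, ZNF205, ZNF358 and ZNF771) stayed under log2 4 in all groups. ZNF648 passed the level in ovary alone, ZNF385D in testis alone, and ZNF232 in adenohypophysis alone, with a mean of 3.94 in ovary, just under it. ZNF687 passed it in testis and, at 4.06, narrowly in ovary. ZNF408, a gene of retinal vessels, lay near the level in every group, with means from 3.79 in hypothalamus to 4.37 in backfat, where it was highest. A value under the level is close to the background of the array and bounds the transcript rather than measuring it.

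Did ZNF genes differ between tissues? In a limma model of tissue group and breed over all 80 arrays, 45 of the 47 genes (95.7%) differed between the 6 groups at a Benjamini-Hochberg adjusted p under 0.05, against 96.9% of the 6765 genes. Their differences were mostly modest. The range of the 6 group means had a median of 1.08 log2 in ZNF genes and 1.47 in all genes, and the tissue group took a median of 52.7% of the variance against 70.8%. In 8 members the range was 2 log2 or more, and in 5 it was under 0.5, counts that were not made for all genes.

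**Figure D1:**
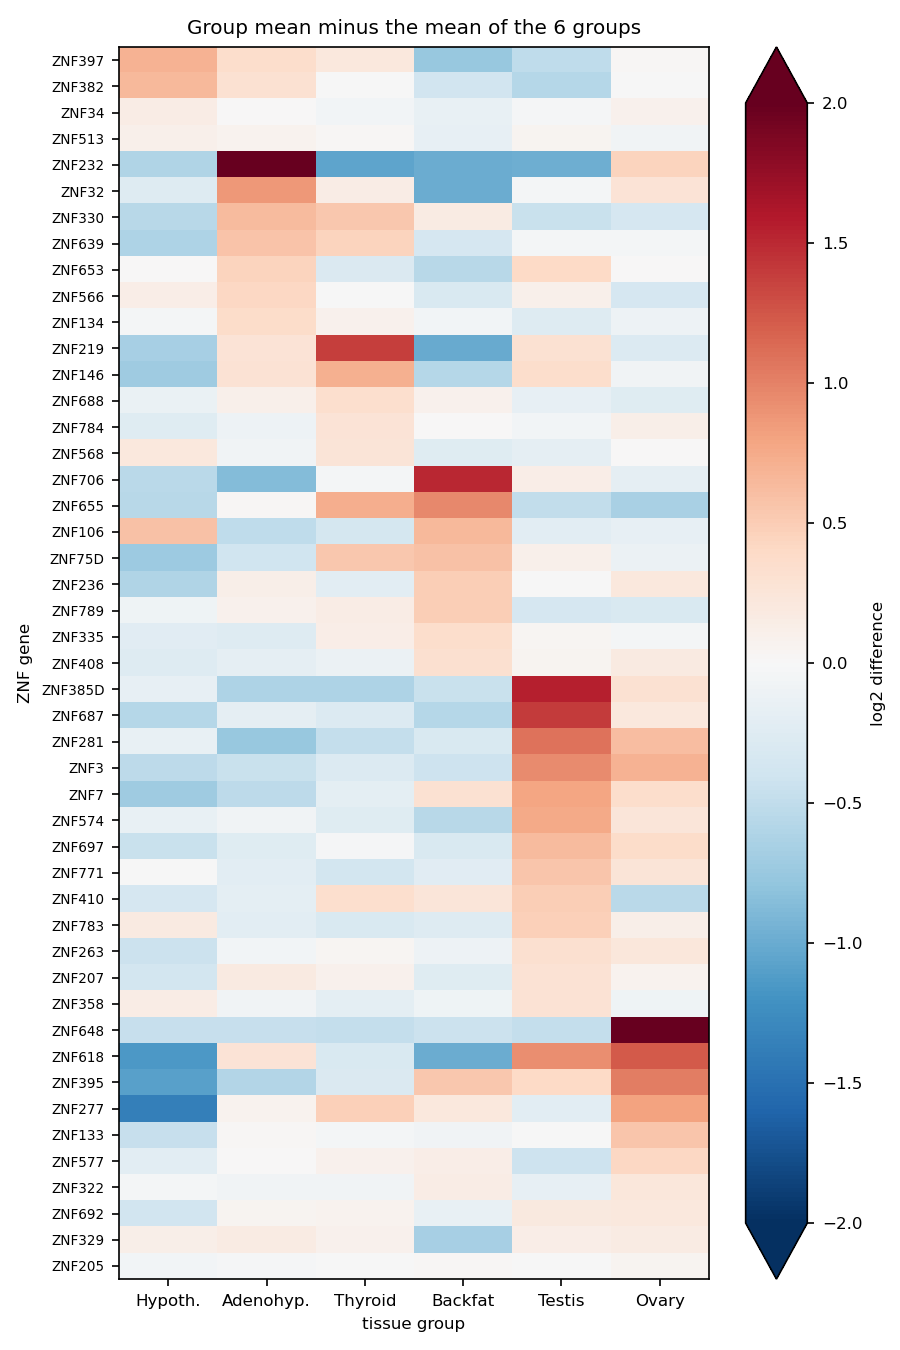
Mean log2 value of each of the 47 ZNF genes (rows) in the 6 tissue groups (columns), shown as the difference from the mean of the gene's 6 group means, with rows ordered by the group of highest mean; the colour scale stops at 2 log2 either way. On these values, not centred by array, testis holds the highest mean of 13 genes and ovary of 10, while hypothalamus holds the lowest mean of 18.

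Gonads were most often the highest tissue and hypothalamus most often the lowest. Testis had the highest mean of 13 members and ovary of 10, together 23 of 47 (48.9%) against 32.3% of all genes. Hypothalamus had the lowest mean of 18 (38.3%, against 27.3% of all genes). These shares describe the group and carry no test. They rest on means not centred by array, and they count members near background and near ties. ZNF205, for instance, was highest in ovary at 3.46, with a range of 0.12 log2.

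Each tissue was next set against the mean of the others, with the gonads entering as the mean of testis and ovary, and testis and ovary each against the mean of the 4 non-gonadal tissues. These contrasts share arrays and are therefore given side by side. Hypothalamus had 28 ZNF genes lower (59.6%; 46.3% of all genes were lower) and 6 higher (12.8% against 28.6%), with 74.8% of all genes called either way. Backfat had 23 lower (48.9% against 36.9%) and 13 higher (27.7% against 40.7%; 77.6% of all genes either way). Adenohypophysis had 14 higher (29.8% against 29.8%) and 12 lower (25.5% against 37.1%; 67.0% either way). Thyroid gland had 14 higher (29.8% against 33.3%) and 9 lower (19.1% against 32.3%; 65.6% either way). Testis had 18 higher (38.3% against 35.6%) and 10 lower (21.3% against 29.7%; 65.3% either way). Ovary had 21 higher (44.7% against 31.5%) and 6 lower (12.8% against 30.0%; 61.5% either way).

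The median difference of the 47 genes was -0.30 log2 in hypothalamus, where that of all genes was -0.13, and -0.17 in backfat, where it was 0.02. It was 0.16 in ovary beside -0.03, and within 0.05 of 0 in the other groups. The array medians themselves were lower in backfat by 0.15 log2 and higher in ovary by 0.14 in the same contrasts. With every array centred on its median, backfat had 18 ZNF genes higher and 14 lower, ovary 14 higher and 12 lower, while hypothalamus had 6 higher and 29 lower. Of all genes, centring left 50.1% higher and 29.4% lower in backfat, 25.2% and 45.3% in ovary, and 27.7% and 48.1% in hypothalamus.

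**Figure D2:**
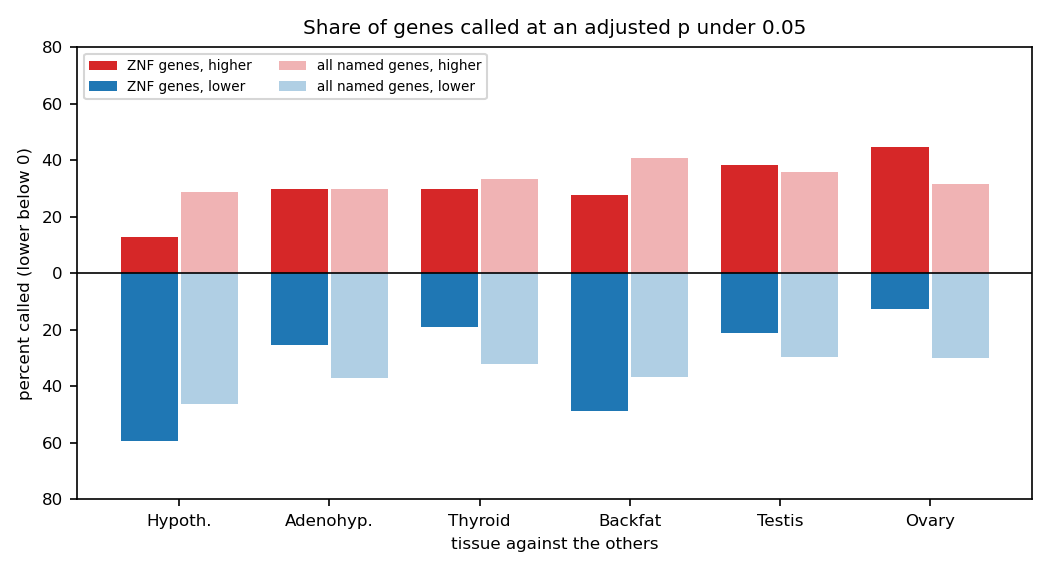
Percent of the 47 ZNF genes (dark bars) and of the 6765 named genes (pale bars) called higher (above 0) or lower (below 0) in each tissue against the others by limma at an adjusted p under 0.05, on values not centred by array. In hypothalamus 59.6% of the ZNF genes were lower against 46.3% of all genes, and in ovary 44.7% were higher against 31.5%.

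ZNF232, a SCAN zinc finger gene, had the widest range of all members and marked the adenohypophysis. Its values there ran from 6.06 to 7.44 (median 6.68; mean 6.69 ± 0.42, SD, n = 16). All other groups lay below this range without overlap. The 7 ovaries came next at 3.14, 3.35, 3.71, 3.97, 4.40, 4.43 and 4.61, whereas thyroid, backfat and testis stayed at means of 2.44 to 2.52. The adenohypophysis exceeded the other tissues by 3.92 ± 0.09 log2 (SE; limma adjusted p = 7.6e-51). In the hypothalamus the highest arrays were those of the Large White males LWM04 at 4.07 and LWM02 at 3.49 and of the Iberian female IBF25 at 3.65; the array of YLM19 that held adenohypophysis markers was at 2.57.

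ZNF32 and ZNF330, the latter a nucleolar protein, were the next genes higher in the adenohypophysis. ZNF32 was at 8.16 to 9.02 (median 8.57), 1.11 ± 0.09 log2 over the other tissues (SE; limma adjusted p = 4.6e-18), and lowest in backfat, at 6.0 to 7.77 (median 6.65). Its second probeset was also highest in adenohypophysis, with an r of 0.981 over the 6 group means. ZNF330 exceeded the others by 0.71 ± 0.08 (limma adjusted p = 1.3e-11), with a mean of 8.22 ± 0.25 (SD, n = 16), but thyroid, at 8.12 ± 0.33 (n = 16), overlapped it. Lower in the adenohypophysis were ZNF706 by -1.10 ± 0.07 (SE), ZNF281 by -0.73 ± 0.09 and ZNF106 by -0.68 ± 0.13.

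Backfat was marked by ZNF706, a short protein with a lone zinc finger. Its 16 backfat values ran from 10.82 to 12.05 (median 11.78), and the lowest was that of YLM19, the array with the highest muscle markers; the other 15 were at 11.34 to 12.05. No array of another non-gonadal tissue passed 10.32, and the testes ended at 10.84, so that backfat overlapped another tissue through YLM19 alone. The difference from the other tissues was 1.89 ± 0.07 log2 (SE; limma adjusted p = 3.8e-37), and 1.98 ± 0.08 without the 5 backfat arrays with muscle markers. Its second probeset, close to background, was also highest in backfat.

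ZNF655 and ZNF395 followed among the 13 genes higher in backfat. ZNF655, a cell cycle protein that binds VAV1, was at 5.07 to 7.12 (median 6.40) and exceeded the other tissues by 1.04 ± 0.11 log2 (SE; limma adjusted p = 1.4e-13), with thyroid close behind at 6.15 ± 0.27 (SD, n = 16) and overlapping. In the thyroid arrays with the least and the most fat marker signal, LWM04 and DUM12, ZNF655 was at 5.86 and 6.12; the part of fat in the thyroid value was not tested. ZNF395, which binds the huntingtin promoter and responds to hypoxia, was at 9.05 to 9.81 and 0.84 ± 0.08 higher (limma adjusted p = 8.4e-16), but ovary was higher still.

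Lower in backfat were ZNF219 by -1.26 ± 0.09 and ZNF32 by -1.21 ± 0.09 log2 (SE; limma adjusted p = 1.2e-21 and 6.5e-20). ZNF232 was called lower too, but at 2.51 in backfat it was near background, as in thyroid (2.44) and testis (2.52), while the comparison mean holds the adenohypophysis at 6.69. The YLM19 array, with the highest muscle markers, was also the highest of backfat for ZNF219, at 9.18 against 7.60 to 8.32 in the other 15.

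ZNF106, an RNA-binding protein needed by motor neurons and muscle, had 1 far backfat array. In backfat it read 12.08 in YLM19 and 7.78 to 8.97 in the other 15 animals, so that the mean of 8.71 ± 0.96 (SD, n = 16) became 8.49 ± 0.36 (n = 15) without that array. The difference of backfat from the other tissues was 0.77 ± 0.13 log2 (SE; limma adjusted p = 3.8e-07), and 0.52 ± 0.07 (adjusted p = 1.4e-09) without the arrays with muscle markers. YLM19 had muscle markers at 14.31; the other 4 backfat arrays with them were at 5.49 to 9.77 and had ZNF106 at 7.78 (DUM12, the lowest of backfat) to 8.85. The part of muscle in this value was not tested. Hypothalamus was higher in ZNF106 as well, at 8.16 to 9.08 (median 8.60), by 0.68 ± 0.13 (limma adjusted p = 4.2e-06).

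The thyroid gland was marked by ZNF219, a repressor known as a partner of SOX9 in cartilage. Its values there were 9.89 to 11.77 (median 10.32; mean 10.43 ± 0.42, SD, n = 16), above every array of the other tissues, of which the testes came closest at up to 9.85. It exceeded the other tissues by 1.73 ± 0.09 log2 (SE; limma adjusted p = 5.4e-29). ZNF146, a protein made of fingers alone, was 0.92 ± 0.08 higher (limma adjusted p = 1.6e-16), at 8.93 to 9.84, and overlapped adenohypophysis, testis and ovary. ZNF655 was 0.76 ± 0.11 higher. ZNF106 was lower in thyroid by -0.49 ± 0.13. ZNF232 and ZNF385D were called lower as well, but both were near background there (2.44 and 2.79) and in most other groups.

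Hypothalamus was low for several widely expressed genes. ZNF277, a partner of the Polycomb protein BMI1, ran from 7.97 to 9.19 (median 8.69) there, while means elsewhere were 9.80 to 10.82, a difference of -1.63 ± 0.09 log2 (SE; limma adjusted p = 9.7e-28). ZNF395 was lower by -1.18 ± 0.08 and ZNF618, a partner of the chromatin protein UHRF2, by -1.15 ± 0.10. Against this trend ZNF397, a SCAN zinc finger gene, was 0.80 ± 0.09 higher (limma adjusted p = 2.6e-13), at 7.24 to 8.47, and ZNF382, a KRAB repressor, 0.74 ± 0.09 higher (adjusted p = 2.0e-11), at 5.62 to 6.79. Both overlapped the adenohypophysis, the group next to them.

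ZNF207 and ZNF75D were named for probeset means among the highest of the members, although levels of different probesets are not comparable. ZNF207, a spindle protein that loads BUB3, had means from 9.69 in hypothalamus to 10.35 in testis. ZNF75D was lowest in hypothalamus, at 7.77 to 8.55 (median 8.12), a difference of -0.90 ± 0.07 log2 (SE; limma adjusted p = 2.6e-20), and highest in backfat (9.43 ± 0.21, SD, n = 16) and thyroid gland (9.38 ± 0.24, n = 16), which overlapped. In the thyroid arrays LWM04 and DUM12 it was at 9.62 and 9.34, and the part of fat in the thyroid value was not tested here either.

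**Figure D3:**
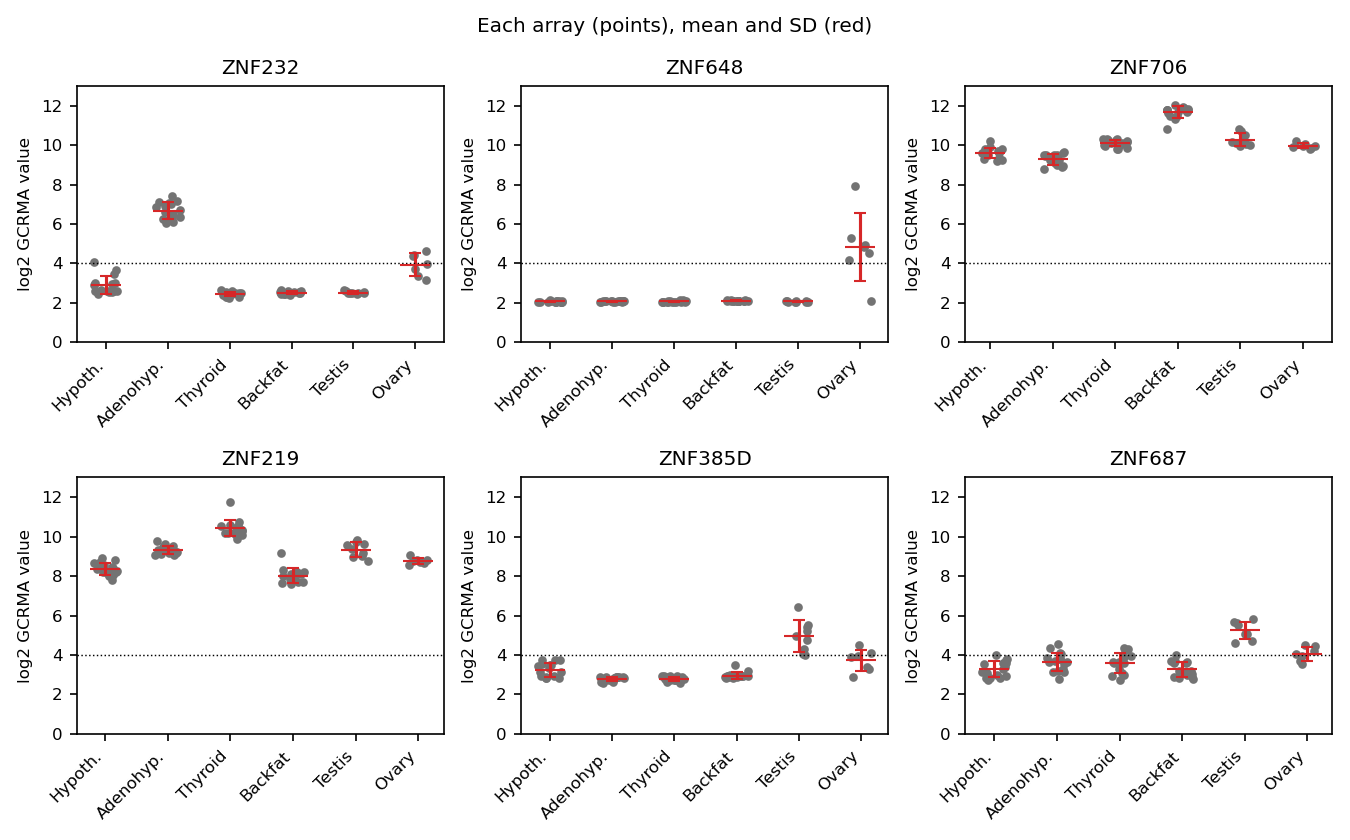
Log2 GCRMA value (vertical axis) of 6 ZNF genes on each of the 80 arrays by tissue group, with group mean and SD in red and the level of log2 4 dotted. The adenohypophysis values of ZNF232 begin at 6.06, above all other groups, and 1 of the 7 ovaries, at 2.10, lies with the other tissues for ZNF648.

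ZNF648 marked the ovary. It read 4.19, 4.53, 4.82, 4.96, 5.30 and 7.92 in 6 ovaries and 2.10 in that of IBF25, the array without ovary markers. All arrays of the other tissues lay at 2.03 to 2.17, near background. The ovary exceeded the 4 non-gonadal tissues by 2.74 ± 0.19 log2 (SE; limma adjusted p = 6.3e-21), by 3.19 ± 0.15 without IBF25, and by 2.23 without DUF14, the Duroc ovary at 7.92. The SE and p rest on a spread pooled over the 6 groups, with an SD of 1.72 in ovary (n = 7) and 0.02 to 0.03 elsewhere. They therefore understate the spread of the ovaries.

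ZNF618 and ZNF395 were the other genes with the largest excess in ovary. ZNF618 was at 7.93 to 8.63 (median 8.10), 1.72 ± 0.15 log2 over the non-gonadal tissues (SE; limma adjusted p = 4.0e-17), and no array of those tissues passed 7.65. ZNF395 was at 9.38 to 10.38 and 1.37 ± 0.11 higher (limma adjusted p = 8.5e-18), an order that 2 of its other 3 probesets shared (r of 0.991 and 0.998 over the group means). Lower in ovary were ZNF655 by -0.94 ± 0.16, ZNF330 by -0.54 ± 0.12 and ZNF410 by -0.52 ± 0.18 (limma adjusted p = 4.2e-07, 9.0e-05 and 0.0108).

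In testis the largest excess was that of ZNF385D, of a family with fingers of the RNA-binding kind. It ran from 4.0 to 6.44 (median 4.96) in the 9 testes and did not pass 3.74 in any non-gonadal array, while ovaries reached 4.50, a difference of 2.02 ± 0.13 log2 (SE; limma adjusted p = 8.3e-24). ZNF687, a member of a chromatin complex with ZMYND8, was at 4.59 to 5.84 (median 5.12) and 1.78 ± 0.15 higher (limma adjusted p = 2.2e-17), just above the highest adenohypophysis at 4.54. ZNF281, a partner of pluripotency factors in stem cells, was at 8.42 to 8.96 and 1.51 ± 0.11 higher (limma adjusted p = 1.2e-20), and all 6 of its probesets were highest in testis. None of these rested on the 3 testes with spermatid markers, since the differences were 2.23, 1.79 and 1.58 without them.

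The testis calls of ZNF410 and ZNF653 did rest on those 3 arrays, and both genes were singled out after their values were seen. ZNF410, which controls the chromatin remodeller CHD4, was at 6.37, 6.70 and 7.09 in the testes with spermatid markers and at 5.06 to 5.71 in the other 6. Its excess over the non-gonadal tissues was 0.46 log2 with all testes (limma adjusted p = 0.0108) and 0.06 without the 3 (adjusted p = 0.783). ZNF653, first described as a repressor of the steroidogenic factor SF-1, was at 6.26, 6.41 and 7.07 in them and at 4.77 to 5.86 in the others, with 0.48 becoming 0.11. ZNF574 was also highest in these testes, at 7.51, 7.67 and 7.88 against 5.56 to 6.61 in the others. The part of germ cell content in these values was not tested.

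Lower in testis were ZNF655 by -0.78 ± 0.14 and ZNF382 by -0.72 ± 0.11 log2 (SE; limma adjusted p = 1.8e-06 and 9.4e-08). ZNF232 was called lower as well, near background at 2.52.

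How far did the 2 gonads differ? In a fit of the 16 gonads with breed, 11 of the 47 ZNF genes differed (23.4%, against 36.2% of all genes), 5 higher in testis (10.6% against 19.6%) and 6 higher in ovary (12.8% against 16.6%). The groups did not overlap in 3 of them (ZNF232, ZNF577 and ZNF687), 6.38% of the members beside 12.6% of all genes. Of the genes high in gonads, several did not pass this test. ZNF3, a KRAB gene, was at 7.87 ± 0.36 in testis (SD, n = 9) and 7.61 ± 0.51 in ovary (n = 7) beside means of 6.40 to 6.65 elsewhere. The difference of testis from ovary was 0.24 ± 0.21 log2 for ZNF3 (SE; limma adjusted p = 0.487), 0.46 ± 0.23 for ZNF281 (0.161) and -0.19 ± 0.18 for ZNF618 (0.517).

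Higher in testis than in ovary were ZNF385D by 1.31 ± 0.38 log2 (SE; limma adjusted p = 0.0218), ZNF687 by 1.18 ± 0.20 (9.4e-04), ZNF410 by 0.88 ± 0.27 (0.0267), ZNF219 by 0.60 ± 0.16 (0.0124) and ZNF566 by 0.42 ± 0.13 (0.029). ZNF687 was at 3.53 to 4.50 in the ovaries, under all testes. Among testes, the 3 arrays with spermatid markers were the lowest of ZNF219, at 8.77, 8.99 and 9.01 against 9.18 to 9.85 in the other 6, and without them its difference from ovary was 0.79 ± 0.11 (adjusted p = 0.00119). The call of ZNF566 was lost without those testes (0.31 ± 0.11, adjusted p = 0.0751), and that of ZNF385D without all arrays that stood apart (1.39 ± 0.46, adjusted p = 0.0536). Leaving out single animals ended the call of ZNF410 without LWF05, LWF06 or YLF21 (adjusted p up to 0.0612) and that of ZNF566 without DUF13, IBF22, IBM23, LWF05 or LWF06 (up to 0.0613).

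Higher in ovary were ZNF648, ZNF232, ZNF277, ZNF577, ZNF382 and ZNF397, with testis minus ovary differences of -2.71, -1.45, -0.99, -0.85, -0.58 and -0.51 log2 (limma adjusted p = 0.00268, 9.1e-05, 0.00235, 0.00259, 0.0161 and 0.0214). The 9 testes of ZNF232 lay at 2.43 to 2.63, near background, under all ovaries. ZNF577, a KRAB gene, was at 4.49 to 5.51 in testis and 5.59 to 6.52 in ovary. ZNF277 overlapped, at 9.15 to 10.70 in testis and 10.29 to 11.26 in ovary. Without the 3 testes with spermatid markers ZNF397 was no longer called (adjusted p = 0.0866); without IBF25 the 47 genes gave 14 calls in place of 11.

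**Figure D4:**
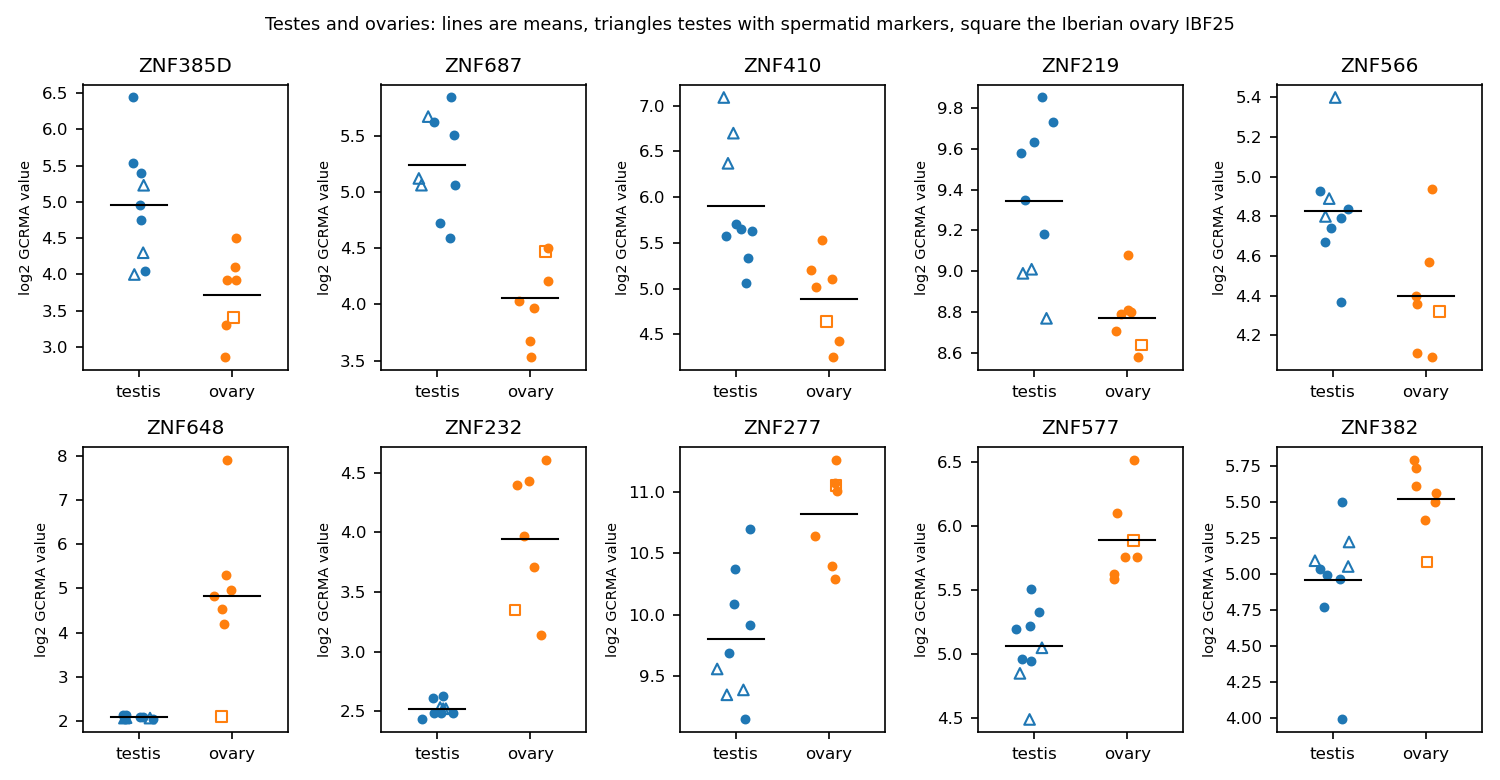
Log2 GCRMA value (vertical axes, each with its own scale) of 10 ZNF genes in the 9 testes (blue) and 7 ovaries (orange), with horizontal lines at the means, triangles for the 3 testes with spermatid markers and a square for the Iberian ovary without ovary markers. The triangles are the highest testes of ZNF410 and the lowest of ZNF219, and the square is near background for ZNF648.

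Outside the gonads, males and females were hardly different. No ZNF gene differed by sex in hypothalamus, thyroid gland or backfat by limma, where 0.0443, 0.0739 and 0.0148% of all genes were called. Of all genes 0.0296% were lower in males in hypothalamus and 0.0296% in thyroid gland. In the same order 0, 3 and 0 members had an unadjusted limma p under 0.05. So had 123, 344 and 156 of the 6765 genes. In adenohypophysis 5 members had an unadjusted limma p under 0.05, as had 687 of the 6765 genes. After adjustment 1 member was called (2.13%, against 0.65% of all genes, with 0.103% higher and 0.547% lower in males). This was ZNF655, at 5.42 to 5.85 in 9 males (median 5.58) and 4.97 to 5.46 in 7 females (median 5.31), with 0.37 ± 0.06 log2 more in males (SE; adjusted p = 0.0261). The sexes overlapped slightly, and leaving out 1 animal ended the call for 8 of 16 animals (DUM12, DUM15, IBF25, IBM24, LWF05, LWF06, LWM02 and LWM04), with an adjusted p up to 0.0717 while the difference stayed at 0.34 or more. In backfat the difference was -0.32 ± 0.22, the other way round, and not called (adjusted p = 0.999).

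Sex effects in the gonads were then compared with those in the other 4 tissues of the same animals. The male minus female difference was unlike that of the other tissues in 8 ZNF genes (17.0%, against 32.4% of all genes). Of these 6 had more in ovary (12.8% of the members) and 2 more in testis (4.26%). Of the 6765 genes 973 had more in ovary and 1220 more in testis. ZNF322 was called here alone, at -0.41 ± 0.14 log2 (SE; limma adjusted p = 0.0446), and lost its call without any 1 of 11 animals. The other 7 were also called between testis and ovary; of these ZNF385D lost its call here without any 1 of 12 animals and ZNF577 without YLF21. Leaving out 1 animal gave between 5 (without YLF21) and 10 (without IBF22) calls.

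Breed calls depended on how the arrays of an animal were combined. No ZNF gene passed the test for breed in any tissue, nor in the mean of the 4 non-gonadal tissues per animal, where 1.05% of all genes did. When the 64 non-gonadal arrays entered singly with the animal as replicate block, 9 of 47 were called (19.1%, against 13.4% of all genes), among them ZNF7 (limma adjusted p = 7.8e-07), ZNF133 (7.9e-07) and ZNF207 (0.035). Breed differs only between the 16 animals, and this fit takes the same within-animal correlation of 0.112 for every probeset. Its p is too small for a gene that follows the animal more closely, as ZNF133 did (below). Within hypothalamus, adenohypophysis, thyroid gland and backfat 0.192, 0.281, 0.695 and 0.665% of all genes were called, and in testis and ovary 0.0%, with 2 or 3 testes a breed and 7 ovaries, 1 of them Youli. By limma an unadjusted p under 0.05 was found for 7 members in hypothalamus, 8 in adenohypophysis, 6 in thyroid gland, 11 in backfat, 8 in testis, 7 in ovary and 9 in the non-gonadal mean. The same held for 1092, 1061, 1180, 1287, 1252, 499 and 1386 of the 6765 genes, so that ovary had 14.9% of the members beside 7.38% of all genes and the non-gonadal mean 19.1% beside 20.5%.

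The 3 smallest p in the non-gonadal mean, none below the threshold, were those of ZNF7, ZNF207 and ZNF133. ZNF7, a KRAB gene, had means of 5.51 ± 0.53 in Iberian, 5.00 ± 0.26 in Youli, 4.71 ± 0.19 in Large White and 4.27 ± 0.23 in Duroc (SD, n = 4 animals; limma adjusted p = 0.0539). Iberian was the highest and Duroc the lowest of the 4 breeds in each of the non-gonadal tissues and in testis; in ovary Large White, at 5.17, was just under Duroc, at 5.19 (n = 2 each). ZNF207 was at 9.81 ± 0.12 in Iberian, the lowest, and at up to 10.06 in the other breeds (n = 4; limma adjusted p = 0.0887). ZNF133, a KRAB gene, was at 5.42 ± 0.76 in Youli and 5.26 ± 0.52 in Large White beside 4.22 ± 0.16 in Duroc and 4.37 ± 0.14 in Iberian (n = 4; adjusted p = 0.101).

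The spread of ZNF133 within the 4 non-gonadal tissues was between animals rather than between tissues. All 8 Duroc and Iberian animals had means of 4.01 to 4.49 over the 4 tissues. Their ovaries did not all follow, at 5.03 (DUF13), 5.77 (DUF14), 5.8 (IBF22) and 3.2 (IBF25), beside 5.83 in LWF05 and LWF06. Their testes were at 3.59 to 4.95, beside 5.33 in LWM02 and 5.43 in LWM04. Among Youli animals YLM18, YLM19 and YLF21 had 5.67, 5.69 and 6.0 but YLM20 4.31, and among Large White animals LWF05, LWM04 and LWF06 had 5.05, 5.68 and 5.68 but LWM02 4.63. The tissue group took 10.7% of the variance of this gene, against a median of 52.7% over the members. Without YLM20 the breed test of ZNF133 had an adjusted p of 0.0153, and without IBM24 that of ZNF7 had 0.0299.

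Breed differences were not the same in every tissue for 1 member (2.13%, against 5.25% of all genes). An unadjusted p under 0.05 by limma was found for 4 of the 47 members and for 1393 of the 6765 genes. ZNF655 was highest in Large White in backfat, at 6.89 ± 0.25, with the other breeds at 6.04 to 6.35 (n = 4 animals a breed). In hypothalamus it was highest in Iberian, at 5.37 ± 0.36 against 4.60 to 4.85. The interaction had an adjusted p of 0.0353, and 0.0346 without the backfat arrays with muscle markers, one of which, YLM19 at 5.07, was the lowest of its group. Leaving out 1 animal ended the call for 10 of 16, with an adjusted p up to 0.153 without IBF22, and leaving out all arrays that stood apart gave 0.064.

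**Figure D5:**
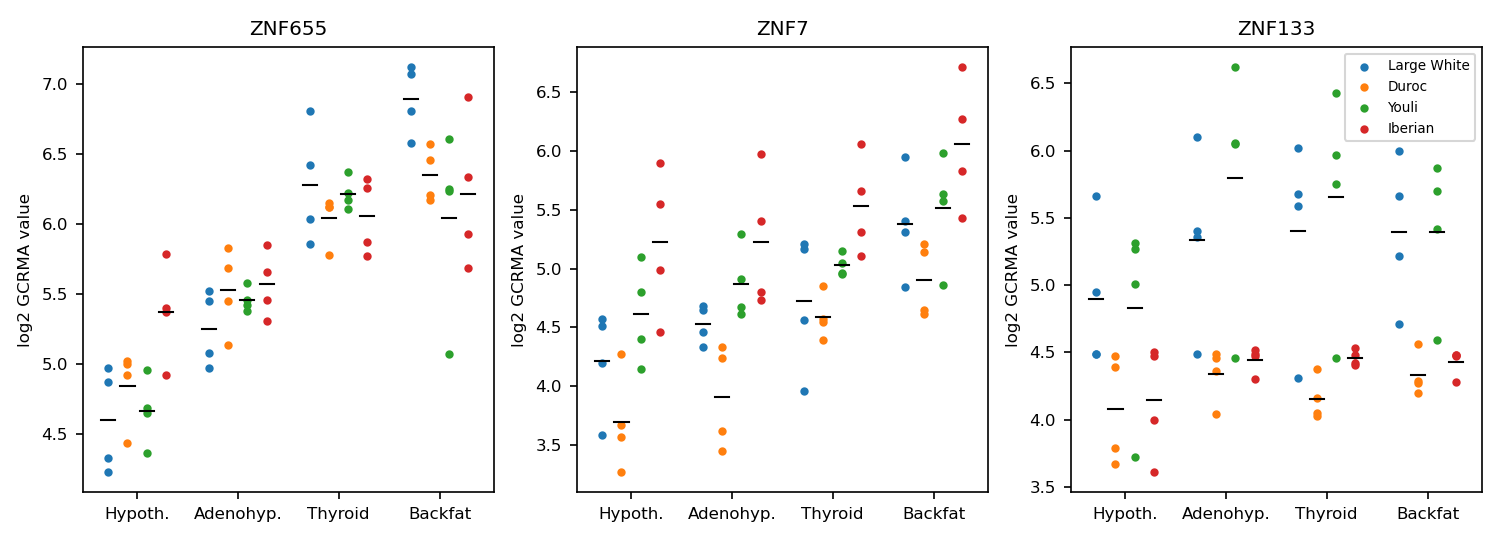
Log2 GCRMA value (vertical axes, each with its own scale) of ZNF655, ZNF7 and ZNF133 in the 4 non-gonadal tissues by breed, 4 animals (points) and their mean (line) per breed. ZNF7 is highest in Iberian and lowest in Duroc in each tissue, and ZNF133 is low in all Duroc and Iberian animals but mixed in Large White and Youli.

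Where a gene had several probesets, these could disagree. Of 22 further probesets, 14 had the same highest tissue as the one used and 10 had an r of 0.9 or more with it over the 6 group means, but 10 had a mean under log2 4. The least alike were those of ZNF34 (r of -0.773), ZNF385D (-0.443) and ZNF568 (-0.411), in each of which the further probeset stayed under log2 4 with a range of 0.35 or less. The third probeset of ZNF385D was highest in testis as well (r of 0.824).

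ZNF genes lie in clusters in mammalian genomes. In the gene order of assembly Sscrofa11.1, on which 46 members were found by gene ID, 5 pairs of members had at most 3 protein-coding genes between them. ZNF655 and ZNF789, with 1 gene between them, had an r of 0.92 over the 6 group means and both were highest in backfat. The further probeset of ZNF789, with a mean of 4.26, was highest in thyroid gland (r of 0.618 with the one used). The other pairs of members had an r of -0.438 (ZNF34 and ZNF7), -0.293 (ZNF146 and ZNF382), 0.443 (ZNF382 and ZNF566) and 0.19 (ZNF566 and ZNF568). With 6 points each, these describe the pairs and no more.

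The co-repressors that KRAB proteins recruit were read beside them. Of 22 such genes listed, 11 had a probeset of their own, and all 11 differed between tissues, as did 96.9% of all genes. TRIM28, ATF7IP, CBX1, CBX5 and MORC2 were among the listed genes that could not be read. In testis 8 were higher and 1 lower, in ovary 7 higher and 1 lower, and in backfat none was higher and 7 were lower; with arrays centred the splits were 6 and 1, 6 and 3, and 2 and 6. Of all genes 35.6% were higher and 29.7% lower in testis, 31.5% and 30.0% in ovary, and 40.7% and 36.9% in backfat. With arrays centred these were 34.1% and 35.8%, 25.2% and 45.3%, and 50.1% and 29.4%. The 8 higher in testis included DNMT3B, near background at 2.65. CBX3, a heterochromatin protein, was at 11.72 ± 0.18 in testis (SD, n = 9) and 11.26 ± 0.18 in ovary (n = 7), beside 10.34 ± 0.18 in hypothalamus (n = 16). DNMT1, the maintenance DNA methyltransferase, was at 11.63 ± 0.97 in ovary and 9.72 ± 0.56 in testis, beside 7.70 ± 0.22 in backfat. HDAC2, a histone deacetylase, was at 9.17 ± 0.23 in testis and 9.10 ± 0.29 in ovary and at most 8.95 elsewhere, while MORC3 moved little, from 8.0 in ovary to 8.35 in hypothalamus and adenohypophysis.

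Other zinc finger families were few on this array. Among 12 genes matched by the symbols KLF and SP, of which SP110 and SP140 are nuclear body proteins and not Krüppel-like factors, 11 were higher in backfat and none lower, with a median of 1.05 log2; with arrays centred this was 12 and none. For ZNF genes the same contrast had 13 higher and 23 lower, and of all genes 40.7% were higher and 36.9% lower. With arrays centred the ZNF genes had 18 and 14, and all genes 50.1% and 29.4%. Centring raised backfat values, and the KLF and SP gene it added was SP1, near background at 3.03. KLF9, induced by glucocorticoids, was at 11.05 ± 0.51 in backfat (SD, n = 16) and 7.68 ± 0.66 in testis (n = 9). Some of these calls were tiny, such as 0.12 ± 0.01 log2 for KLF2, at 2.45 in backfat and 2.32 to 2.33 elsewhere, near background, where GCRMA values hardly vary. The 4 ZFP genes had 3 higher and 1 lower in backfat, and the 2 ZBTB and 2 ZKSCAN genes each had at most 1 call a direction in any tissue.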

How the data were processed

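RNA of 80 tissue samples was hybridized to Affymetrix Porcine GeneChips. The authors scanned the arrays with GCOS and normalized all of them together with GCRMA; the deposited values are log2 intensities of 24123 probesets. After removal of 124 control probesets, 23999 entered each fit with limma 3.58.1 (R 4.3.3), and p-values were adjusted by Benjamini-Hochberg over all of them at 0.05; percentages of all genes are over 6765 genes with 1 symbol, each read by its probeset of highest mean. Tissues were compared with breed as covariate, sexes and breeds within tissue and over the mean of the 4 non-gonadal tissues per animal, and breed by tissue with the animal as random block. No pseudocount or low-value filter was used. P-values of fits with 1 value per animal measure the spread between animals. The tissue fit had no animal term, so its p-values measure the spread between arrays and take the arrays of an animal as separate. Its spread is pooled over the 6 groups, and is too small for a group that varies more than the others. Fits with the animal as block also draw on the spread within animals. The precision is limited by the number of arrays.

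Same-numbered samples come from the same animal; their deviations had a mean r of 0.223 (160 pairs, lowest -0.0215), against -0.0141 for different animals (2400 pairs). The genes named were those with the highest means, up to 3 per tissue and direction by difference, up to 5 per direction between gonads, called members for sex and breed or else the 3 smallest p, up to 4 per other list, and the 3 least alike probeset pairs. ZNF3, ZNF205, ZNF322, ZNF358, ZNF408, ZNF574, ZNF653, ZNF771 and ZNF789 were named outside this rule, after their values were seen. The members and lists were chosen with earlier results of these data known. Alternatives were array centring, animal blocks, a filter of dim probesets, other levels, leaving out each animal and, chosen after seeing the data, leaving out arrays that stood apart by markers. Protein classes were not analysed here. The fits were also run on simulated data with independent noise, no animal effect and the same spread in every group. Such data cannot test how shared animals or unequal spreads affect the p-values.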

Additional observations from a re-analysis of the deposited data

Results flagged for a closer look

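In gonads, 4 arrays of the named ZNF genes lay far from the rest of their group by Dixon's criterion, out of 40 gene and gonad combinations tested, of which chance flags about 1 in 20. ZNF281 was at 6.85 in the ovary of IBF25, which lacked ovary markers, against 8.19 to 8.77 in the others. ZNF618 was at 8.63 in the same ovary against 7.93 to 8.17, and at 6.71 in the testis of YLM19, which had spermatid markers, against 7.60 to 8.39. ZNF382 was at 3.99 in the testis of LWM04 against 4.77 to 5.50.

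The male minus female difference was unlike in gonads and in the other tissues of the same animals, tested as the difference itself, for 8 genes (17.0%, against 32.4% of all genes). In limma it was -2.71 log2 for ZNF648 (adjusted p = 0.00287), -1.39 for ZNF232 (5.4e-04), -0.85 for ZNF277 (0.00435), -0.69 for ZNF577 (0.0153), -0.61 for ZNF382 (0.0169) and -0.41 for ZNF322 (0.0446). It was 1.19 for ZNF687 (0.00894) and 1.27 for ZNF385D (0.036). Breed differences of ZNF655 were unlike between tissues, with a limma adjusted p of 0.0353.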

How the results depend on the processing

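With arrays centred on their medians, the ZNF genes called lower were 14 in backfat in place of 23 and 12 in ovary in place of 6. For breed in the non-gonadal tissues, 9 genes were called in place of 0 when the 64 arrays entered one by one with the animal as replicate block (consensus correlation 0.112), among them ZNF7 (limma adjusted p = 7.8e-07), ZNF133 (7.9e-07) and ZNF207 (0.035), and 1 was called with the mean of 5 tissues (ZNF207, 0.0466). The fit of 64 arrays counts several arrays of an animal for a factor that differs only between animals, so its p can be too small. Breed by tissue gave 0 calls in place of 1 without all arrays that stood apart. Leaving out each animal gave 0 to 1 calls for sex in adenohypophysis, for breed in adenohypophysis (1 without IBM24, LWM04 or YLM20), for breed in the non-gonadal mean (1 without IBM24, LWF06 or YLM20) and for breed by tissue, 5 to 10 for sex in gonads against other tissues and 9 to 14 for testis against ovary. The animal as replicate block left 45 genes differing between tissues, with 14 higher and 24 lower in backfat and 22 higher and 6 lower in ovary. Of 59 named results, 48 stayed on their side of the threshold in every alternative run for them, and none reversed. The cause of these changes was not tested. Values near background bound a level and do not measure it.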
